A study of Mus musculus with 9 samples.

Results

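RNA was sequenced from MCEC, a cultured line named as endothelial cells of the mouse heart. In it, 42 genes of protein folding and quality control in the endoplasmic reticulum (ER) were followed across all 9 libraries. The genes were taken by symbol from a list, out of 55487 genes in the count table, by a rule that reads the symbol and no expression value, though the list was drawn up with earlier results of these data known. All 42 were among the 16955 genes with enough counts to be tested. The libraries formed 3 groups of 3: wild-type MCEC (WT), MCEC with knockdown of Zbtb46 (KD) and MCEC with enforced overexpression of Zbtb46 (OE), a gene for a zinc finger transcription factor of the BTB family. How the knockdown and the overexpression were made is not given in the sources used here, and no library from cells with an empty vector or a control RNA was analysed here. The labels do not say whether the 3 libraries of a group came from separate cultures, so p-values measure only the spread between these libraries, which may be technical.

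Secreted and membrane proteins enter the ER through the SEC61 channel and are folded there by chaperones of the HSP70 and HSP90 families, by lectin chaperones that read N-glycans, and by enzymes that form disulfide bonds or turn proline bonds. Proteins that fail to fold are sent back to the cytosol for destruction, a route called ER-associated degradation. When unfolded proteins build up, 3 sensors in the ER membrane start the unfolded protein response: IRE1 (gene Ern1) splices the messenger RNA of the transcription factor XBP1, ATF6 is cut to release a transcription factor, and PERK (gene Eif2ak3) phosphorylates eIF2alpha and thereby favours translation of ATF4. ATF6 and spliced XBP1 raise chaperone and degradation genes, while ATF4 raises genes of amino acid supply and CHOP. Endothelial cells secrete matrix and coagulation proteins and depend on this machinery.

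The targeted gene was low in WT, at 13.2 to 14.4 CPM (counts scaled to a common library size with TMM factors), at 10.6 to 11.7 CPM in KD and at 188 to 194 CPM in OE. Zbtb46 fell by 0.28 on the log2 scale in KD (SE 0.055, adjusted p = 0.00144) and rose by 3.81 in OE (SE 0.039, adjusted p = 3.24e-21), in a quasi-likelihood test with edgeR, whose p-values were adjusted by the Benjamini-Hochberg method over all genes tested and which stands behind every adjusted p given here. Library totals ran from 39491828 to 55745849 counts, and ribosomal RNA features took 7.44% to 17.3% of them in WT, 9.55% to 12.0% in KD and 14.4% to 18.2% in OE. With those features removed, the counts of members called were the same as those given here in all 3 comparisons. Of 15 endothelial markers 6 had enough counts to be tested, with Pecam1 and Cdh5 at no more than 10 and 7 counts in any library and Erg at 0 in all 9. Most of these markers thus did not bear out the endothelial name of the line. The summed endothelial marker level, most of it Eng, was 147 to 160 CPM in WT, 124 to 131 in KD and 107 to 118 in OE. The markers did not all move alike: of the 6 tested, 4 were lower and 1, Flt1, was higher in OE than in WT. Flt1 had a mean of 17.2 CPM in WT, 12.1 in KD and 21.9 in OE (log2 0.35 in OE against WT, adjusted p = 0.00151). Fibroblast and mural markers, most of them Col1a1, summed to 5147 to 5723 CPM in WT, 4888 to 4952 in KD and 4062 to 4154 in OE, with 1 of 11 markers at no more than 3 counts everywhere. Leukocyte, cardiomyocyte and epithelial markers stayed under 6 CPM in sum in each library. The part of these shifts in the results was not tested, and in bulk RNA fewer cells of a type and less RNA per cell cannot be told apart.

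The promoters of ER chaperone genes carry a known binding element of ATF6 with NF-Y, the ER stress response element (ERSE), spelled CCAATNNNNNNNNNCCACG. It was first described in chaperone genes such as Hspa5, so its presence in these genes is background and not a property found here. RefSeq promoter windows (build GRCm38.p6, 250 bases before to 50 after each start) were matched for 35 of the 42 genes, and both strands were searched. The 35 genes have 41 such windows, since some have more than 1 start. The element was in 10 of these 41 windows (24.4%), 1 window for each of 10 genes, and in 39 of the 32851 windows of all genes together (0.119%). By gene, it was in 10 of the 35 (28.6%) and in 8 of the 10012 other tested genes with a window (0.0799%). The sites are shown 5′ to 3′ in the direction of the element with 6 bases on either side, because their genes hold many of the larger changes described further on, and the fixed letters of the element are in capitals.
Hspa5: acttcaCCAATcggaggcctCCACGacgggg
Calr: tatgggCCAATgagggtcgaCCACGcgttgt
Hsp90b1: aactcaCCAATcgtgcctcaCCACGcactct
Creld2: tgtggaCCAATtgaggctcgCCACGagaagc
Dnajc3: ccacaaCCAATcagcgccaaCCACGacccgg
Pdia6: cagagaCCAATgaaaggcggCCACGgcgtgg
Ero1lb: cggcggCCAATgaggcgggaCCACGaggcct
Syvn1: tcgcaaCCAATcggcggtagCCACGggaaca
Canx: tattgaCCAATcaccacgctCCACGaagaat
Derl3: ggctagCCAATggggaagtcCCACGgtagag
The sites lie at chr2:34772025-34772043 for Hspa5 and chr8:84847075-84847093 for Calr, on the plus strand in both cases, and at chr10:86705533-86705551 for Hsp90b1, which holds a second copy further from its start.

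A shorter variant, ERSE-II (ATTGGNCCACG), was in 2 of the 41 member windows (4.88%) and in 12 of all 32851 promoters (0.0365%). It lay before the start of Herpud1, at chr8:94386377-94386387 on the plus strand, and just after the start of Dnajb11. As for the ERSE, its presence in these genes is background and not a property found here. The XBP1 element TGACGTGG was in 1 of the 41 member windows (2.44%), that of Txndc5, and in 222 of all promoters (0.676%). The ATF4 element TGATGNAA was in 2 of the 41 (4.88%), those of Herpud1 and Txndc5. That is near its share of all promoters (1304, 3.97%). No overlap between motifs was scored, a match describes the letters only, and no match says only that the letters are not in the window. Stretches of 150 bases are given for Hspa5 (chr2:34771940-34772089, plus strand), which has an exact ERSE match. They are also given for Herpud1 (chr8:94386279-94386428, plus strand) and Pdia3 (chr2:121413752-121413901, plus strand), which have no exact ERSE match. Near copies were not searched for. The Pdia3 stretch holds CCAAT, 9 bases and CCACA, which differs from the ERSE only in the last letter. The Herpud1 stretch ends in CCAAT, 9 bases and CCAC. Letters of exact ERSE or ERSE-II matches are in capitals.
Hspa5: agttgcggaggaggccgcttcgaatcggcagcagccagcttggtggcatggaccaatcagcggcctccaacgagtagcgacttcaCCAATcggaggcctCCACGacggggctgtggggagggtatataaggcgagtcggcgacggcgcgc
Herpud1: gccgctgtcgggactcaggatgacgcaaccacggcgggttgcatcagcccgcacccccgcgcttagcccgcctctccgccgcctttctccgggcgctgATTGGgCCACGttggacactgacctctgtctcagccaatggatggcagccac
Pdia3: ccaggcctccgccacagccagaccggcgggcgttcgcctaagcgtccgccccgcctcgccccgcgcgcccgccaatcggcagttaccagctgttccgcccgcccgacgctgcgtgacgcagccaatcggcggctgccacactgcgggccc

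In KD, 32 of the 42 genes were higher than in WT, 0 were lower and 10 did not pass the test, while 11.0% of all genes tested were higher and 10.4% lower. The 0 stood also at an unadjusted p under 0.05, with DESeq2 and with limma-voom. The largest rises were in Ero1lb, Sdf2l1, Dnajc3, Herpud1 and Hspa5, all between 1.75-fold and 2.22-fold. By the estimates 14 genes rose by at least 1.5-fold, as did 683 of all 16955 genes tested. Fewer of the 14 passed a test against a fold of 1.5. The median log2 fold change was 0.36 over the 42 genes and -0.0022 over all genes tested. In 32 genes each KD library lay above each WT library (17.6% of all genes tested), and in 1 gene, Fkbp7, each lay below (17.0%).

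In OE the same list was split, with 15 genes higher than in WT, 10 lower and 17 that did not pass, beside 16.9% and 19.5% of all genes tested. The chaperones Hspa5, Calr, Hsp90b1, Creld2 and Manf and the oxidase Ero1lb rose, and Xbp1, Hyou1, Ppib, Txndc5 and Fkbp7 fell. The median was 0.083 on the log2 scale, against 0.0020 over all genes. The groups did not overlap for 17 genes in the higher direction (21.7% of all genes) and for 8 in the lower (23.5%). This split moved with the scaling, as did that of all genes: 19 higher and 5 lower with upper-quartile factors (20.7% and 17.4% of all genes), and 10 higher and 11 lower with library totals alone (9.57% and 20.7%). Without OE replicate 1, and likewise without OE replicate 2, the lower calls were 5. With the median change of the surrounding 20 Mb of chromosome subtracted, Hyou1 and Xbp1 were higher in OE than in WT (0.24 and 0.25). Ppib then did not pass (-0.082, adjusted p = 0.385), while Txndc5 and Fkbp7 stayed lower.

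The direct comparison of OE with KD found 34 genes lower in OE, 1 higher (Fkbp10) and 7 that did not pass, where 22.1% of all genes tested were lower and 19.4% higher. Its median was -0.25, against 0.011 over all genes. In 35 genes each OE library lay below each KD library (28.2% of all genes), and in 1 gene above (27.2%). OE and KD each refer to the same 3 WT libraries, so the values against WT are given side by side and the comparison of OE with KD carries the test of the difference.

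Together the 42 genes took 1.09% to 1.22% of all counts in WT, 1.53% to 1.55% in KD and 1.25% to 1.28% in OE. Their summed level was 11306 ± 121 CPM in WT, 15470 ± 384 in KD and 12853 ± 289 in OE (SD, n = 3), that is 1.37 times WT in KD and 1.14 times in OE. Calr, Hspa5 and P4hb alone gave 4178 ± 49.6 CPM of this in WT and 6177 ± 178 in KD.

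**Figure D1:**
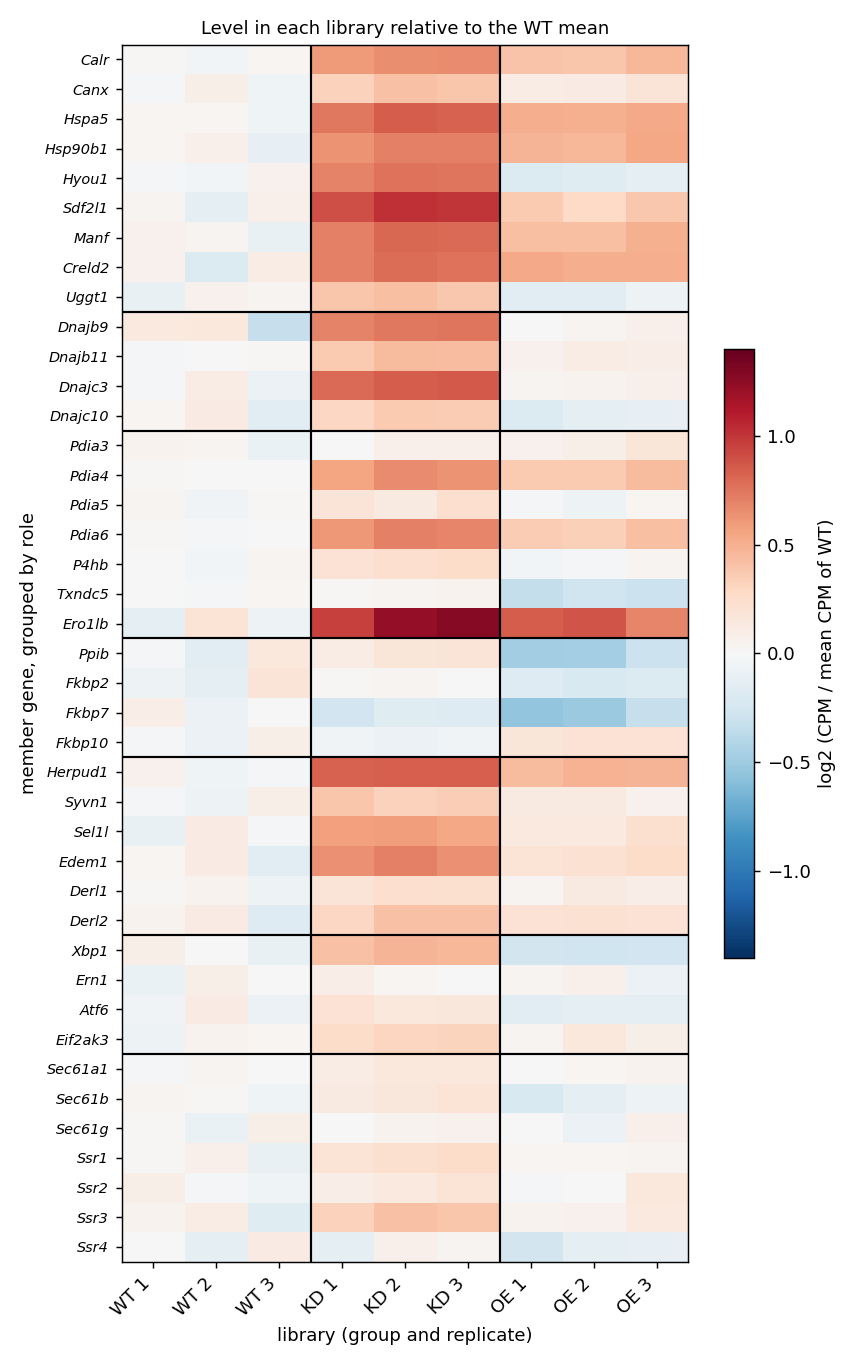
Level of 41 member genes in each of the 9 libraries, as the log2 ratio to the WT mean of the gene (colour scale), with genes in rows grouped by role and libraries in columns; Derl3, with 2 to 12 counts a library, is left out. The KD columns are red for most chaperone and degradation genes, the OE columns are paler, and Hyou1, Xbp1, Ppib, Txndc5 and Fkbp7 are blue in OE.

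**Figure D2:**
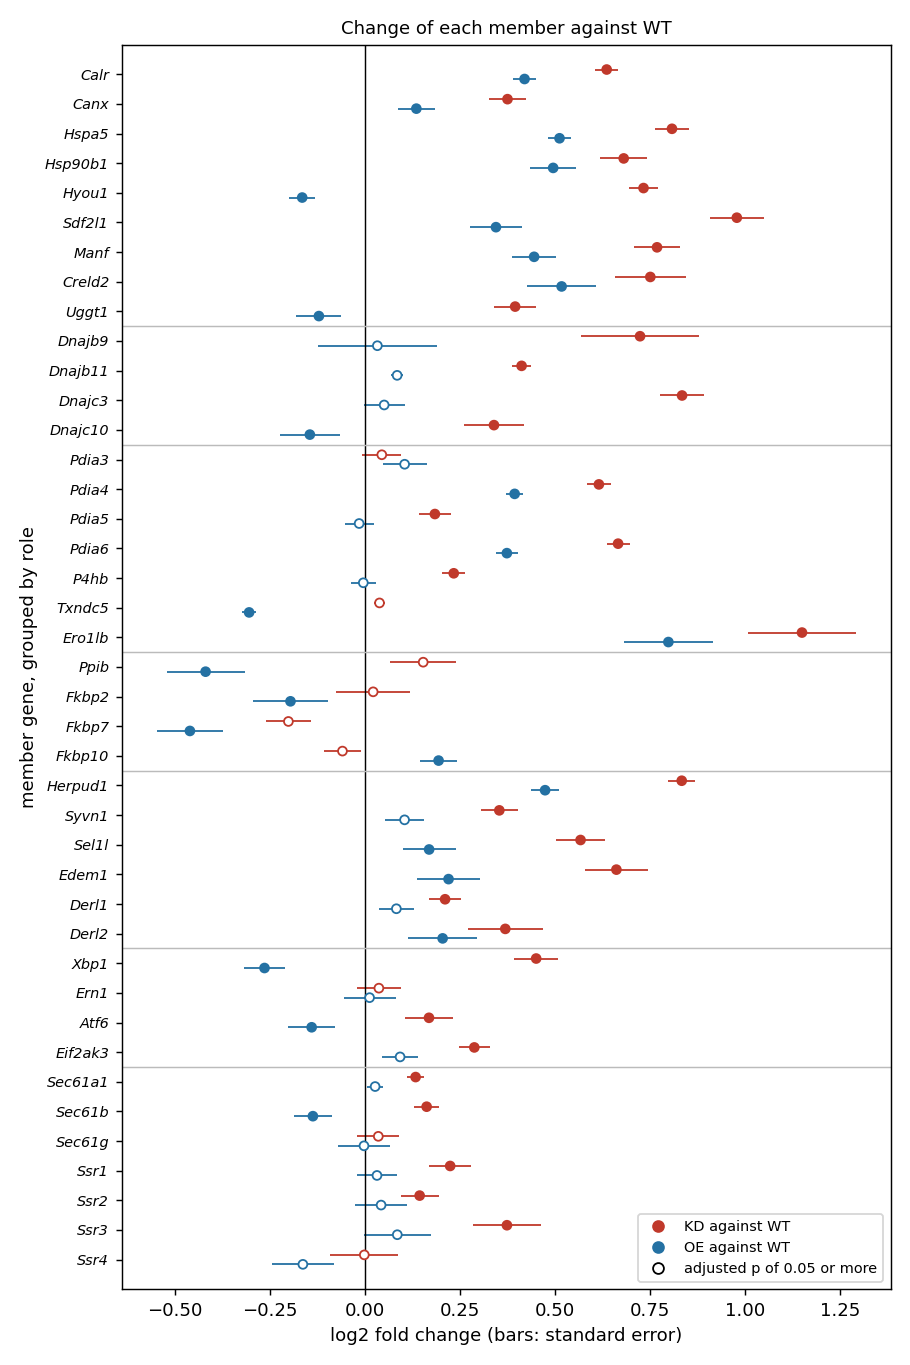
Log2 fold change of each of 41 genes in KD (red) and OE (blue) against WT, with bars of 1 standard error and open points for an adjusted p of 0.05 or more; both comparisons use the same WT libraries and Derl3 is left out. Filled red points lie to the right of 0 for 32 genes, whereas filled blue points lie on both sides.

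The lumenal chaperones and the factors that serve them form the group with the broadest change. All 9 were higher in KD, with a median log2 fold change of 0.73, 7 were higher and 2 lower in OE (median 0.42), and all 9 were lower in OE than in KD (median -0.30). Hspa5 (chr2:34771970-34777547, plus strand) encodes BiP, the ER HSP70 that binds unfolded chains and holds the stress sensors inactive. It stood at 1279, 1286 and 1207 CPM in WT, at 2104, 2262 and 2236 in KD and at 1783, 1777 and 1817 in OE. The 3 groups formed separate bands, with KD highest. Hspa5 rose by 0.81 in KD (SE 0.044, adjusted p = 5.53e-12) and by 0.51 in OE (SE 0.031, adjusted p = 1.47e-09), and was 0.30 lower in OE than in KD on the log2 scale (log2 fold change -0.30, adjusted p = 2.37e-06).

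Calr (chr8:84841850-84846934, minus strand) encodes calreticulin, the soluble lectin chaperone that also stores calcium. Its levels were 1449, 1396 and 1466 CPM in WT, 2165, 2264 and 2269.8 in KD and 1899.5, 1887 and 1979 in OE, again 3 separate bands, for log2 changes of 0.64 (SE 0.031, adjusted p = 1.23e-10) and 0.42 (SE 0.030, adjusted p = 1.5e-08). Canx, its membrane-bound partner calnexin, rose less, by 0.37 in KD (adjusted p = 1.92e-06) and 0.13 in OE (adjusted p = 0.0167). Uggt1, the enzyme that adds a glucose back to misfolded glycoproteins so that the lectins bind them again, rose by 0.39 in KD (adjusted p = 1.86e-06) and fell by 0.12 in OE (adjusted p = 0.0385), where its levels overlapped those of WT.

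Hsp90b1 encodes GRP94, the HSP90 of the ER, which folds integrins and Toll-like receptors. It was measured at 505, 520.2 and 457 CPM in WT, 765, 806 and 804 in KD and 687, 682 and 719 in OE. Each KD and OE library lay above each WT library, with changes of 0.68 (SE 0.061, adjusted p = 9.11e-10) and 0.49 (SE 0.061, adjusted p = 2.49e-08). Sdf2l1, a small lumenal protein that works with BiP and its cochaperones, rose most of this group in KD. It had 37.6, 33.5 and 38.4 CPM in WT, 68.3, 74.2 and 72.9 in KD, and 46.9, 44.4 and 47.5 in OE. KD was 1.97-fold above WT (log2 0.98, SE 0.071, adjusted p = 1.63e-10) and OE was 1.27-fold above it (log2 0.34, SE 0.067, adjusted p = 8.95e-05).

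Manf and Creld2, small secreted proteins that are induced by ER stress, followed the same order of groups. Manf had 89.2, 87.5 and 79.3 CPM in WT, 139, 148 and 148 in KD and 114, 114 and 120.0 in OE (log2 0.77 and 0.44, adjusted p = 4.59e-10 and 3.32e-07). Creld2 had 91.4, 76.9 and 94.1 CPM in WT, 143, 151 and 148 in KD, and 126, 124 and 124 in OE (log2 0.75 and 0.52, adjusted p = 2.66e-08 and 8.6e-07). The lowest KD and OE libraries lay above the highest WT library for both genes. Exons of Manf overlap those of Rbm15b and Dcaf1, and exons of Hsp90b1 those of 1810014B01Rik and Gm15344, and whether counts were shared was not tested, since the strand setting of the counting is not given in the sources used here.

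Hyou1 (chr9:44379490-44392369, plus strand), the large HSP70 relative that exchanges nucleotide on BiP, departed from the others in OE. Its levels were 436, 434 and 464 CPM in WT, 717, 753 and 746 in KD and 391, 395 and 404 in OE. The gene rose by 0.73 in KD (SE 0.038, adjusted p = 3.44e-11) and fell by 0.17 in OE (SE 0.035, adjusted p = 0.00227), and the OE libraries were 0.90 below the KD ones (log2 fold change -0.90, adjusted p = 1.76e-13). The 20 Mb stretch of chromosome 9 around Hyou1 was low in OE as a whole. The median over its genes was -0.41 against WT and -0.54 against KD, beside the -0.90 of Hyou1 against KD. Once such window medians were subtracted, Hyou1 was 0.24 above WT in OE (adjusted p = 5.81e-05), a rise. The sign of Hyou1 in OE relative to WT thus depended on whether window medians were subtracted. Without that subtraction it stayed between -0.19 and -0.14 when any 1 library was left out. Why the stretch was low was not tested.

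**Figure D3:**
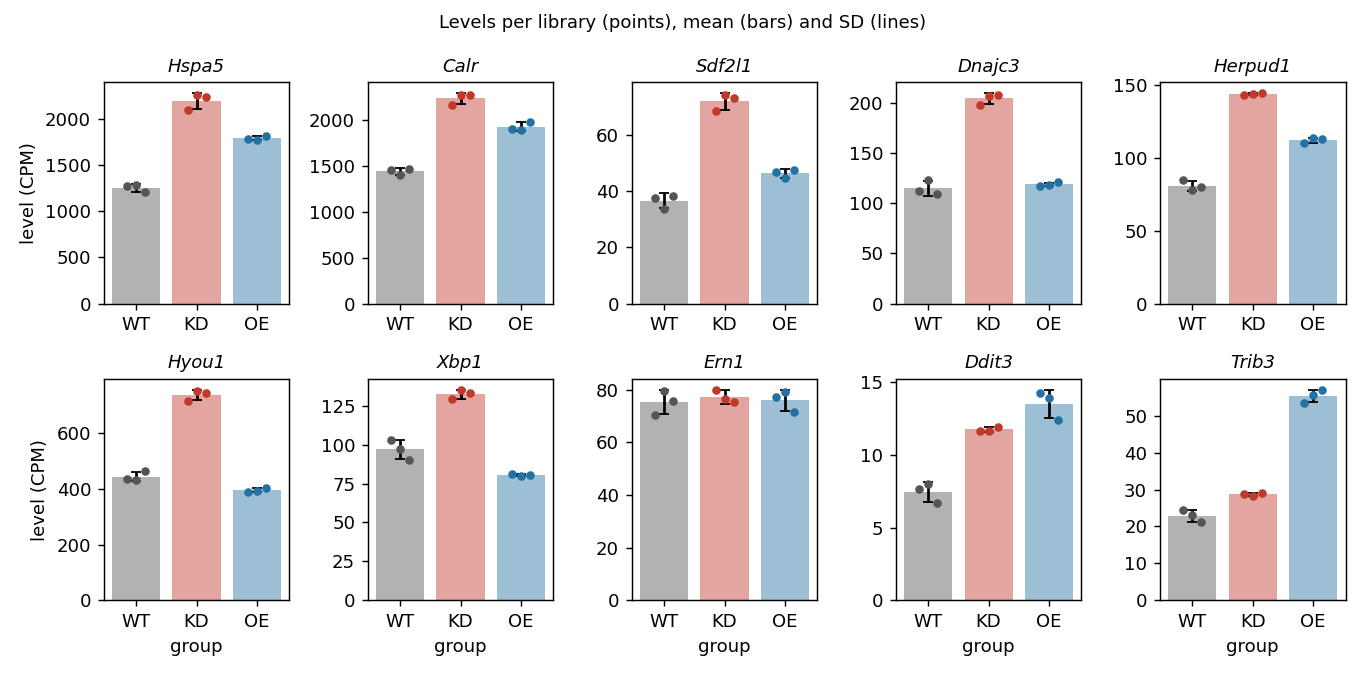
Levels in CPM of 8 member genes and of Ddit3 and Trib3, which belong to the PERK and ATF4 list, with 1 point per library, bars for the mean of 3 libraries and lines for the SD. KD is highest for Hspa5, Calr, Sdf2l1, Dnajc3, Herpud1, Hyou1 and Xbp1, the groups overlap for Ern1, and OE is highest for Trib3.

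The DnaJ cochaperones, which bring clients to BiP and start its ATPase, changed in KD alone among the higher calls. All 4 were higher in KD (median log2 fold change 0.57), whereas in OE 1 was lower and 0 were higher by edgeR, with 1 higher at an unadjusted p under 0.05 and 0 by DESeq2 and limma-voom. All 4 were lower in OE than in KD (median -0.59), which is the test of that difference. Dnajc3, also called P58IPK, an inhibitor of PERK that works as a BiP cochaperone in the lumen, had 113, 123 and 109 CPM in WT, 199, 207 and 209 in KD and 117, 118 and 121 in OE. The KD libraries stood far above the rest, while OE lay within the WT range. Dnajc3 rose by 0.83 in KD (SE 0.057, adjusted p = 4.73e-11), and its value in OE was 0.05 (adjusted p = 0.446), or -0.012 with library totals alone.

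Dnajb9, or ERdj4, an XBP1 target that hands IRE1 to BiP, was at 19.7, 19.8 and 14.3 CPM in WT, 29.0, 29.9 and 30.0 in KD and 17.8, 18.4 and 18.8 in OE. Its rise in KD was 0.72 (SE 0.16, adjusted p = 1.7e-05). The value in OE was 0.03 (adjusted p = 0.834), turning to -0.028 with library totals alone and to -0.11 without WT replicate 3, the lowest WT library. Dnajb11, or ERdj3, a soluble BiP cochaperone, had 145, 147 and 148 CPM in WT, 189, 199 and 198 in KD and 153, 158 and 156 in OE, with log2 values of 0.41 (SE 0.024, adjusted p = 2.1e-07) and 0.08 (adjusted p = 0.108). OE lay just above WT without overlap and far below KD. Dnajc10, a reductase with a DnaJ domain that opens disulfides for degradation, rose by 0.34 in KD (adjusted p = 8.87e-05) and fell by 0.15 in OE (adjusted p = 0.0366), with WT and OE libraries overlapping.

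Among the 7 disulfide isomerases and oxidases, 5 rose in KD (median log2 fold change 0.23), 3 rose and 1 fell in OE (median 0.10), and 6 were lower in OE than in KD (median -0.24). Ero1lb, the oxidase ERO1-beta that passes oxidising equivalents to the isomerases, showed the largest rise of all 42 genes in both comparisons, at a low level. It had 8.25, 10.4 and 8.63 CPM in WT, 17.6, 21.3 and 22.0 in KD, and 16.3, 16.7 and 14.6 in OE. The WT libraries lay below all others, with a 2.22-fold rise in KD (log2 1.15, SE 0.14, adjusted p = 7.26e-08) and a 1.74-fold rise in OE (log2 0.80, SE 0.12, adjusted p = 2.87e-06). The difference of OE from KD was -0.35 (adjusted p = 0.00631), and it no longer passed without KD replicate 3 (-0.29, adjusted p = 0.0529) or with window medians removed (-0.17, adjusted p = 0.20).

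Pdia4 and Pdia6, isomerases of the BiP complex, rose in parallel. Pdia4 had 271, 267 and 269 CPM in WT, 396, 426 and 415 in KD and 348, 348 and 365 in OE (log2 0.62 and 0.39, adjusted p = 5.63e-10 and 9.61e-08). Pdia6 had 274, 267 and 269.8 CPM in WT, 412, 440.1 and 433 in KD and 346, 341 and 362 in OE (log2 0.67 and 0.37, adjusted p = 1.78e-10 and 2.26e-07). Both formed 3 separate bands in the order WT, OE, KD. P4hb, the classical protein disulfide isomerase and a subunit of collagen prolyl 4-hydroxylase, rose by 0.23 in KD (adjusted p = 0.000115) and had a value of -0.0048 in OE. Pdia5 rose by 0.18 in KD (adjusted p = 0.02). Txndc5 fell by 0.31 in OE (adjusted p = 1.34e-06) with a value of 0.04 in KD (adjusted p = 0.541), and its exons overlap those of Bmp6. Pdia3, the isomerase that binds calnexin and calreticulin, did not pass in any comparison: its levels ran from 644 to 708 CPM in WT, 683 to 721 in KD and 713 to 774 in OE, and its exons overlap those of Catsper2.

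The prolyl isomerases, several of which act on collagen, made up a small group of 4. In this group 0 passed in KD with edgeR, DESeq2 or limma-voom, and 1 was higher at an unadjusted p under 0.05. In OE 3 fell and 1 rose, with a median of -0.31. Ppib, cyclophilin B, which forms the collagen 3-hydroxylation complex with Crtap, had 83.6, 76.7 and 93.8 CPM in WT, 91.1, 95.2 and 96.1 in KD and 60.3, 61.0 and 68.5 in OE. The OE libraries lay below all others, for a change of -0.42 (SE 0.10, adjusted p = 6.05e-05). Genes of its 20 Mb stretch of chromosome 9 had a median of -0.34 in OE, and after subtraction of that median Ppib stood at -0.082 (adjusted p = 0.385).

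Fkbp10, or FKBP65, a chaperone of collagen whose loss causes a brittle bone disease, was the 1 member higher in OE than in KD. Its levels were 275, 263 and 294 CPM in WT, 268, 261 and 269 in KD and 313, 319.9 and 319 in OE. OE lay above both other groups, which overlapped, with changes of 0.19 against WT (SE 0.048, adjusted p = 0.00112) and 0.25 against KD (SE 0.016, adjusted p = 5.32e-05). The call against WT was lost with library totals alone (0.13, adjusted p = 0.119), and exons of Fkbp10 overlap those of Nt5c3b. Fkbp7 fell by 0.46 in OE (adjusted p = 0.00197) from 8.60 ± 0.52 CPM in WT to 6.24 ± 0.55, and Fkbp2 fell by 0.20 (adjusted p = 0.0184).

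In ER-associated degradation 6 of 7 genes rose in KD and 4 in OE, with medians of 0.37 and 0.20, and 6 were lower in OE than in KD (median -0.25). Herpud1 (chr8:94386438-94395377, plus strand), the membrane protein that organises the HRD1 ligase complex and turns over fast, had 84.6, 77.8 and 80.2 CPM in WT. It had 143, 144 and 145 CPM in KD and 110.3, 114 and 113 in OE. The 3 groups were well apart and the KD libraries nearly equal, for rises of 0.83 (SE 0.036, adjusted p = 1.69e-11) and 0.47 (SE 0.038, adjusted p = 2.2e-08). Among its partners, Syvn1, the HRD1 ubiquitin ligase, rose by 0.35 in KD (adjusted p = 7.45e-06) and had a value of 0.10 in OE (adjusted p = 0.0769). Exons of Syvn1 overlap those of Mrpl49.

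Sel1l, the adaptor that keeps HRD1 stable, was at 105, 122 and 112 CPM in WT, 168, 169 and 165 in KD and 125, 124 and 132 in OE. Its rise in KD was 0.57 (SE 0.064, adjusted p = 5.62e-08). The rise of 0.17 in OE (adjusted p = 0.011) did not pass without WT replicate 1 (adjusted p = 0.0695), without OE replicate 3 (adjusted p = 0.0679) or with library totals alone (adjusted p = 0.321). Edem1, the mannosidase-like lectin that extracts misfolded glycoproteins from the folding cycle, had 98.8, 105 and 86.8 CPM in WT, 151, 158 and 151 in KD and 111, 112 and 116 in OE. All KD and OE libraries were above WT, with rises of 0.66 (SE 0.083, adjusted p = 3.5e-08) and 0.22 (SE 0.083, adjusted p = 0.00349); the second did not pass with library totals alone (adjusted p = 0.0975). The derlins, rhomboid relatives of the retrotranslocation channel, moved less, with Derl1 rising by 0.21 (adjusted p = 0.00178) and Derl2 by 0.37 (adjusted p = 0.00031) in KD, and exons of Derl2 overlap those of Mis12. Derl3 had 2 to 12 counts in each library, a depth at which a change of the size seen in its relatives was not detectable.

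The 4 signalling genes are the 3 sensors and Xbp1. In KD 3 rose (median 0.23), in OE 2 fell (median -0.065), and 3 were lower in OE than in KD (median -0.25). Xbp1 (chr11:5520659-5525893, plus strand) had 103, 97.4 and 90.4 CPM in WT, 129, 135 and 133 in KD and 81.3, 79.8 and 80.8 in OE. The groups formed 3 bands with OE lowest, and Xbp1 rose by 0.45 in KD (SE 0.057, adjusted p = 6.87e-07), fell by 0.26 in OE (SE 0.055, adjusted p = 0.000159), and was lower in OE than in KD (log2 fold change -0.72, adjusted p = 1.09e-10). Genes of the 20 Mb stretch of chromosome 11 that holds Xbp1 had a median of -0.52 in OE, and after subtraction of that median Xbp1 stood at 0.25 (adjusted p = 0.000337), a rise. A gene count does not separate spliced from unspliced Xbp1 messenger RNA, so IRE1 activity was not measured.

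Ern1, which encodes IRE1, had 70.4, 79.6 and 75.8 CPM in WT, 80.1, 76.5 and 75.2 in KD and 77.4, 79.1 and 71.4 in OE. The 3 groups overlapped, and its values of 0.04 in KD (adjusted p = 0.714) and 0.01 in OE (adjusted p = 0.896) turned to -0.0013 and -0.050 with library totals alone. Eif2ak3, which encodes PERK, had 34.1, 37.1 and 36.4 CPM in WT, 42.8, 44.3 and 44.4 in KD and 36.9, 39.7 and 38.1 in OE, with a rise of 0.29 in KD (SE 0.041, adjusted p = 0.000736) and a value of 0.09 in OE (adjusted p = 0.223). WT and OE overlapped and KD lay above both. Atf6 had 70.1, 78.7 and 68.7 CPM in WT, 83.4, 80.4 and 80.9 in KD, and 65.1, 65.9 and 66.6 in OE. Its rise of 0.17 in KD (adjusted p = 0.0239) and fall of 0.14 in OE (adjusted p = 0.0392) were each lost when 1 of several libraries was left out, with adjusted p up to 0.102 in KD (without KD replicate 1) and up to 0.161 in OE (without WT replicate 2). Its difference between OE and KD was -0.31 (adjusted p = 5.18e-05).

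At the entry gate, 5 of the 7 genes of the SEC61 channel and of its partner TRAP rose in KD by small amounts (median 0.14). In OE 1 fell (median 0.026) and 0 rose by edgeR, DESeq2, limma-voom or an unadjusted p under 0.05, and 4 were lower in OE than in KD (median -0.16). Ssr3, the gamma subunit of TRAP, had 494, 513 and 424 CPM in WT, 594, 633 and 625 in KD and 495, 497 and 525 in OE. KD lay above WT and OE, which overlapped, with a rise of 0.37 (SE 0.089, adjusted p = 0.00012) and a value of 0.08 in OE (adjusted p = 0.272), or -0.0002 without WT replicate 3. Sec61b, a small subunit of the channel, had 103, 101 and 96.2 CPM in WT, 109, 112 and 114 in KD and 86.3, 91.2 and 95.3 in OE. The bands were separate but close, with a rise of 0.16 in KD (adjusted p = 0.0161) and a fall of 0.14 in OE (adjusted p = 0.0256). Leaving out KD replicate 2 or 3 ended the first call (adjusted p = 0.0691 and 0.0842), and leaving out WT replicate 1, OE replicate 1 or OE replicate 2 ended the second (adjusted p = 0.0816, 0.166 and 0.0704).

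Of the remaining genes at the gate, Sec61a1, the pore itself, rose by 0.13 in KD (adjusted p = 0.014), Ssr1 by 0.22 (adjusted p = 0.000764) and Ssr2 by 0.14 (adjusted p = 0.0446); exons of Ssr2 overlap the pseudogene Gm10704. Ssr4 did not pass in any comparison, with 41.4 ± 3.39 CPM in WT, 41.4 ± 2.85 in KD and 37.0 ± 1.93 in OE. Sec61g did not pass either, at 77.0 ± 4.73, 78.9 ± 1.99 and 76.8 ± 4.07 CPM (SD, n = 3). Sec61g shares the chromosome 11 window of Xbp1, and with window medians removed its value in OE went from -0.0030 to 0.51 (adjusted p = 1.73e-07).

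Calls of the 42 genes were compared across 20 alternatives, leaving aside the tests against a minimum fold change. Of the 32 rises in KD 26 passed in each of them, and Atf6, Derl1, Pdia5, Sec61a1, Sec61b and Ssr2 did not. Of the 15 rises in OE 10 passed in each, and Canx, Derl2, Edem1, Fkbp10 and Sel1l did not, while of the 10 falls in OE 2 did, those of Txndc5 and Fkbp7. Of the 34 genes lower in OE than in KD, 26 passed in each.

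Set out by promoter, the 10 genes with the ERSE had 9 rises in KD (all but Derl3) with a median of 0.67, 7 rises in OE with a median of 0.46, and 9 lower in OE than in KD with a median of -0.24. The 25 matched genes without it had 17 rises in KD with a median of 0.29, 6 rises and 8 falls in OE with a median of 0.012, and 20 lower in OE than in KD with a median of -0.29. Herpud1 and Dnajb11, which hold ERSE-II, are among the 25, as is Pdia3 with the near copy shown above. The 8 other tested genes with an ERSE in their window had 2 rises and 1 fall in KD (median 0.16) and 3 rises and 2 falls in OE (median 0.12). These counts describe the genes listed, and the sets with and without the element were not tested against each other.

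Levels per kilobase of exon spanned a wide range in WT. The length is that of all annotated exons of a gene merged, whether used in these cells or not, so the order of genes also depends on the annotation. P4hb (519 ± 15.3 CPM per kb) and Calr (499 ± 12.7) led, with ranges of 1 SD that overlapped, followed by Hspa5 (297 ± 10.3), Pdia3 (219 ± 11.6), Canx (144 ± 7.40) and Ssr2 (133 ± 6.57). Hsp90b1, Ssr3 and Pdia4 came next at 123 ± 8.15, 114 ± 11.2 and 112 ± 0.84 CPM per kb, close together on the scale of their SDs. At the low end stood Ern1 (9.21 ± 0.56), Atf6 (7.86 ± 0.59), Dnajb9 (7.03 ± 1.24), Eif2ak3 (5.95 ± 0.26), Fkbp7 (5.79 ± 0.35), Derl2 (5.00 ± 0.53), Ero1lb (1.36 ± 0.17) and Derl3 (0.065 ± 0.037). In KD Calr led with 775 ± 20.5 CPM per kb, ahead of P4hb at 610 ± 13.1 and Hspa5 at 520.3 ± 20.1, and in OE Calr led with 667 ± 17.4. The WT libraries were the most spread: over the members, the median coefficient of variation came to 6.13% for WT, 2.66% for KD and 2.80% for OE.

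**Figure D4:**
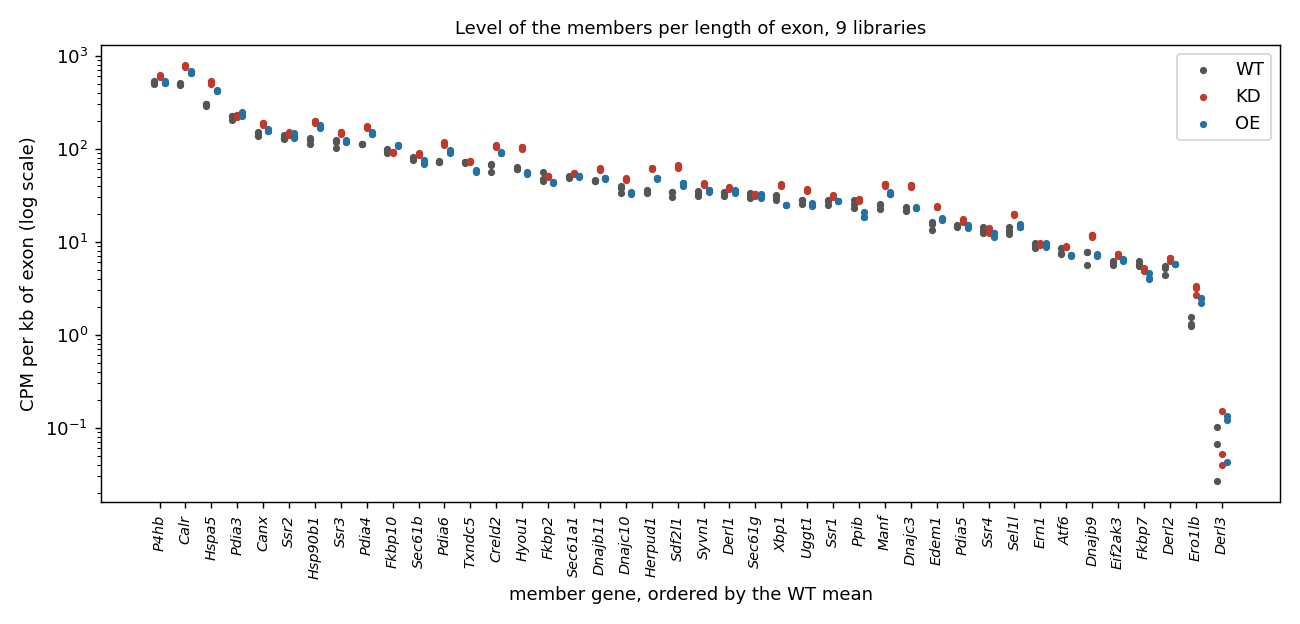
Level of the 42 genes as CPM per kilobase of exon on a log axis, ordered by the WT mean, with 1 point per library for WT (grey), KD (red) and OE (blue). P4hb, Calr and Hspa5 are at the top in each group, and Ero1lb and Derl3 at the bottom.

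Other genes around this machinery were described with 8 further lists, of which 120 of 121 genes had enough counts to be tested. Over these lists 46 genes rose and 9 fell in KD, 47 rose and 26 fell in OE, and 41 were higher and 47 lower in OE than in KD. These are 38.3% and 7.5% of the genes tested there in KD, 39.2% and 21.7% in OE, and 34.2% and 39.2% in OE against KD. Of all genes tested, 11.0% rose and 10.4% fell in KD, 16.9% and 19.5% in OE, and 19.4% and 22.1% in OE against KD. Some shares below lie near these, such as 18.8% of signal recognition genes higher in OE and 22.2% of KDEL and COPII genes lower in OE. Of the 12 genes of the PERK and ATF4 list 7 rose and 1 fell in KD (median 0.16), 10 rose in OE (median 0.58), and 8 were higher and 1 lower in OE than in KD (median 0.37). Trib3, a pseudokinase induced by ATF4 and CHOP, had 24.4, 23.0 and 21.1 CPM in WT, 28.7, 28.1 and 29.2 in KD and 53.5, 55.7 and 56.9 in OE. It formed 3 bands with OE highest and rose by 0.33 in KD (SE 0.063, adjusted p = 0.000546) and by 1.28 in OE (SE 0.066, adjusted p = 9.72e-13).

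Atf4, Ddit3, Chac1, Asns, Sesn2 and Nupr1 of the same list are given here after their values were seen. Ddit3, which encodes CHOP, had 7.67, 8.01 and 6.66 CPM in WT, 11.7, 11.6 and 11.9 in KD and 14.3, 13.9 and 12.4 in OE, rising by 0.66 in KD (adjusted p = 4.27e-05) and 0.86 in OE (adjusted p = 3.77e-07). The difference of Ddit3 between OE and KD was 0.20 and did not pass (adjusted p = 0.0888). Atf4 itself rose by 0.17 (adjusted p = 0.005) and 0.34 (adjusted p = 1.15e-06), Chac1, a glutathione-degrading enzyme, by 0.23 (adjusted p = 0.0169) and 0.90 (adjusted p = 7.46e-10), and Asns, asparagine synthetase, by 0.26 (adjusted p = 0.000269) and 0.76 (adjusted p = 4.08e-11), in KD and OE in that order. Each of these last 3 was higher in OE than in KD, by 0.17, 0.67 and 0.50. Not all genes of the list rose in both groups. Sesn2 fell by 0.25 in KD (adjusted p = 0.00569) and rose by 0.84 in OE (adjusted p = 4.68e-10). Its 20 Mb chromosome window had a median of -0.18 in KD and 0.35 in OE. Nupr1 rose by 0.32 in KD (adjusted p = 0.00262) and had a value of -0.09 in OE (adjusted p = 0.34). Nupr1 was lower in OE than in KD (log2 fold change -0.41, adjusted p = 7.26e-05).

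The oligosaccharyltransferase, which attaches N-glycans as chains enter the ER, had 6 of 12 genes higher in KD and 5 higher and 6 lower in OE (medians 0.067 and -0.067). Its catalytic subunit Stt3b rose by 0.40 in KD (adjusted p = 4.63e-07) and fell by 0.41 in OE (adjusted p = 1.08e-07). For signal recognition and other translocation genes, 8 of 16 were higher in KD and 3 higher and 1 lower in OE (medians 0.18 and 0.070). Srpr, the receptor of the signal recognition particle, rose by 0.21 in KD (adjusted p = 0.000341) and fell by 0.32 in OE (adjusted p = 1.03e-06), in a chromosome window with an OE median of -0.35. Other thiol oxidoreductases gave 4 higher and 1 lower of 13 tested in KD and 4 higher and 4 lower in OE (medians 0.11 and -0.071), with Selenom falling by 1.07 in OE (adjusted p = 3.91e-11) in the window of Xbp1. Ero1l, the paralog of Ero1lb and named after its values were seen, rose by 0.92 in OE (adjusted p = 4.95e-11) with a value of 0.14 in KD (adjusted p = 0.0971).

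Other degradation genes had 8 of 17 higher in KD and 2 higher and 5 lower in OE (medians 0.12 and -0.055); Herpud2, a paralog of Herpud1 in the same window as Srpr, rose by 0.30 (adjusted p = 0.000494) and fell by 0.56 (adjusted p = 9.61e-08). KDEL receptors and the COPII coat, which retrieve and export ER proteins, had 6 of 18 higher in KD and 5 higher and 4 lower in OE (medians 0.093 and 0.024), with Sec23a at -0.09 in KD (adjusted p = 0.214) and rising by 0.29 in OE (adjusted p = 9.32e-05). Cytosolic and mitochondrial chaperones, which serve other compartments, had 6 higher and 4 lower of 21 in KD and 14 higher and 1 lower in OE (medians 0.019 and 0.16), and 15 of them were higher in OE than in KD. Hspb1, a small heat shock protein, fell by 0.68 in KD (adjusted p = 5.49e-06) and rose by 1.08 in OE (adjusted p = 6.78e-10). Collagen folding and hydroxylation genes had 1 higher and 3 lower of 11 in KD and 4 higher and 5 lower in OE (medians -0.0042 and -0.011). Crtap, the partner of Ppib, was at 127, 124 and 139.7 CPM in WT, 134, 146 and 140.3 in KD and 54.6, 55.4 and 55.8 in OE, a fall of 1.24 in OE (SE 0.053, adjusted p = 8.43e-14).

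**Figure D5:**
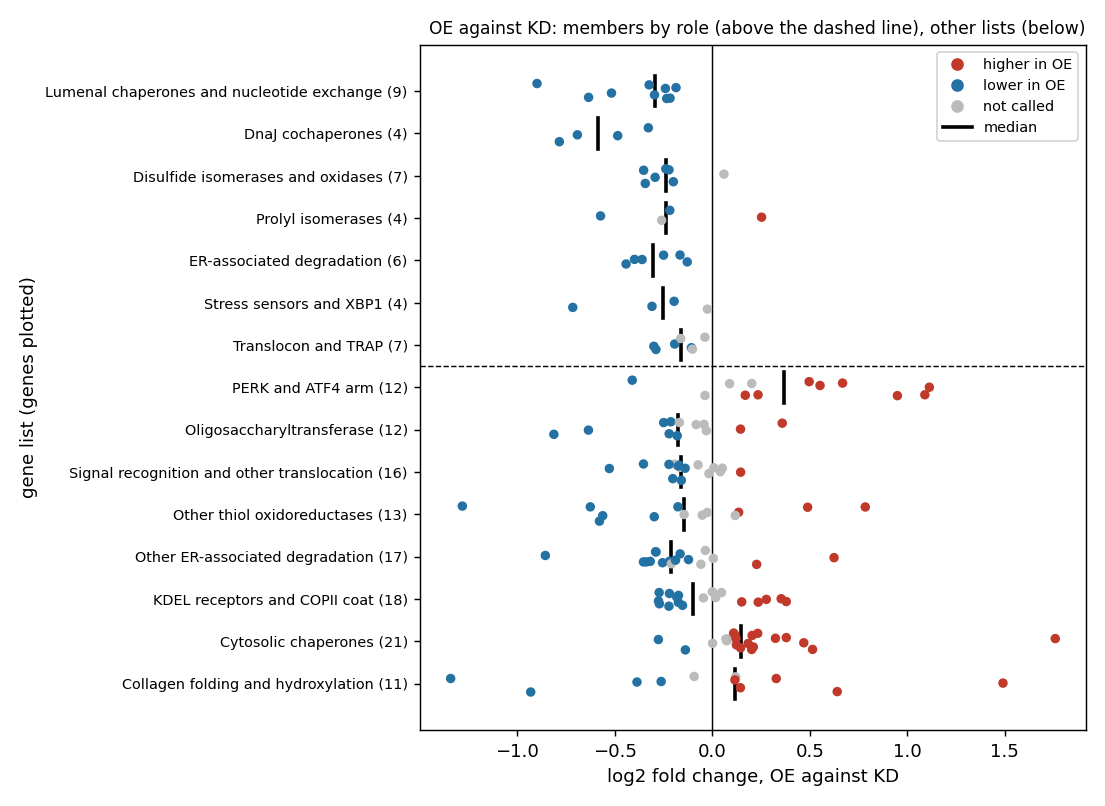
Log2 fold change of OE against KD for the members by role (above the dashed line, without Derl3) and for the 8 other lists (below), with 1 point per gene coloured by its call and a bar at the median. The medians of the 7 role groups lie below 0, as do those of 5 other lists, and the medians of the PERK and ATF4 arm, the cytosolic chaperones and the collagen list lie above 0.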

How the data were processed

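The authors deposited a table of whole-number counts per Ensembl gene for the 9 libraries, not normalised; the genome build is GRCm38 (mm10), per the submitters' processing notes. The aligner, the counting program and the use of strand are not given in the sources used here. Rows repeated for 168 genes held identical counts and were merged, leaving 55487 genes; every column matched 1 library by name. Gene positions and exon lengths came from GENCODE on GRCm38, promoters from RefSeq (GRCm38.p6).

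Genes were filtered with filterByExpr, scaled with TMM and fitted with edgeR 4.0.16 (glmQLFit, robust; glmQLFTest) in R 4.3.3 in 1 model of all 9 libraries with group as the only term, with Benjamini-Hochberg adjustment across the 16955 genes kept and a threshold of 0.05. The SE of a log2 fold change combines the SDs of the groups' log2 CPM (prior count 2). An exact permutation test of 3 against 3 libraries cannot go below 0.1, so single genes were judged by this model. Per-library values were given for the 2 members of each role with the smallest p in the test of any difference, members with a called log2 change of at least 0.5 against WT, the 4 signalling genes, and the gene with the smallest p in each other list; the members, lists and rules were chosen with earlier results of these data known. The fit was tested on simulated counts. Alternatives used DESeq2 1.42.0, limma 3.58.1 (voom), other scalings and filters, ribosomal RNA removal, 20 Mb window medians, minimum folds of 1.2 and 1.5, a replicate block and leaving out each library. Tables and figures were made with Python 3.11.15.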

Additional observations from a re-analysis of the deposited data

How the results depend on the processing

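Across 22 alternatives, 49 of the 62 called values among 72 (24 genes, 3 comparisons) passed in all 20 that set no minimum fold. Sizes were modest: against a fold of 1.2 and of 1.5 the members called were 19 and 7 in KD, all higher; 10 (9 higher, 1 lower) and 0 in OE; and 12 and 3 in OE against KD, all lower, with 0 higher. Of all genes, those folds called 1.69% and 0.419% higher and 3.23% and 1.2% lower in KD, 5.14% and 1.55% higher and 9.09% and 3.13% lower in OE, and 8.61% and 3.52% higher and 11.7% and 4.34% lower in OE against KD. With upper-quartile factors 5 members were lower in OE, and 2 were higher in OE than in KD, as also with window medians removed. Leaving out 1 library gave 27 to 32 members called in KD, 13 to 17 higher and 5 to 10 lower in OE (5 without OE replicate 1 or 2), and 30 to 37 lower in OE than in KD. In the other lists, library totals alone gave 30 genes called in KD (22 higher) and 29 higher in OE. Folds of 1.2 and 1.5 left there 6 and 0 in KD (4 and 0 higher, 2 and 0 lower), 20 and 10 in OE (13 and 7 higher, 7 and 3 lower), and 27 and 11 in OE against KD (15 and 6 higher, 12 and 5 lower). Leaving out 1 library gave 6 to 14 lower calls there in KD, the 14 without WT replicate 2.

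Called values that changed sign were Hyou1 (0.24) and Xbp1 (0.25) in OE with window medians removed; the medians of their windows are given beside them. Values not called changed sign for Dnajb9 in OE (-0.0759 with window medians removed, -0.0284 with library totals, -0.113 to 0.1088 leaving out 1 library), Dnajc3 in OE (-0.0124 with library totals), Fkbp10 in KD (0.0211 with window medians removed), Ssr3 in OE (-0.0002 to 0.1333 leaving out 1 library) and Ern1. Ern1 gave -0.0013 in KD and -0.0504 in OE with library totals, -0.0001 in OE with no filter, 0.038 in OE against KD with upper-quartile factors, and, leaving out 1 library, -0.0087 to 0.079 in KD, -0.0333 to 0.0561 in OE and -0.0539 to 0.0196 in OE against KD. The cause of the changes with scaling was not tested.

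Libraries of the same number did not deviate together (correlations from -0.042 to 0.049, 2 of 9 libraries closest to their own number). The labels do not say whether libraries of the same number were prepared together, and these correlations cannot settle that. With the replicate block 32 members were higher in KD, 15 higher and 9 lower in OE, and 34 lower in OE than in KD. Derl3 is limited by depth.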
